A study of Homo sapiens with 8 samples.

Results

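The guide arms of the miR-29 family, hsa-miR-29a-3p, hsa-miR-29b-3p and hsa-miR-29c-3p, were followed in PC-3 cells exposed to luteolin, gefitinib or both. PC-3 is an established human prostate cancer line that grows without androgen. Luteolin is a flavonoid made by plants, and gefitinib blocks the kinase of the epidermal growth factor receptor. The members were taken by name from the array annotation and are 3 of the 1887 human miRNAs on the array. There were 4 groups with 2 arrays each, all of RNA collected after 24 h: cells given the solvent DMSO alone, luteolin, gefitinib, or the drugs together, each drug at 60 µM. Both drugs were dissolved in DMSO, so all groups share the solvent, the line and the culture conditions. The labels number the samples as biological replicates and the study's methods speak of duplicate arrays. Nothing else in them says that the replicates came from separate cultures, so the p-values below measure the spread between these samples, which may be technical.

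A miRNA is cut from a hairpin transcript as a duplex of 2 strands. The guide arm is loaded into an Argonaute protein and pairs with messenger RNAs through its seed, bases 2 to 8, while the passenger arm is mostly degraded. The miR-29 guides are known for repressing collagens and other extracellular matrix genes, the DNA methyltransferases DNMT3A and DNMT3B, the survival protein MCL1 and the cell cycle kinase CDK6. Transcription of the miR-29 loci is known to be repressed by MYC. In many tumours, prostate tumours included, low miR-29 is associated with invasive growth.

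The mature guides are shown because the family is defined by their seed. They are written 5′ to 3′ with the seed in capitals, as RefSeq gives them with GRCh38.p14.
miR-29a-3p: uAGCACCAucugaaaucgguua
miR-29b-3p: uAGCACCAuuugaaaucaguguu
miR-29c-3p: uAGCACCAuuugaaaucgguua
Among 2370 mature human miRNAs in the RefSeq table, these 3 alone hold this seed. Counted from 1 at the 5′ end, miR-29a-3p differs from miR-29c-3p by the single substitution U10C. miR-29b-3p differs from miR-29c-3p over their first 22 bases by G18A, U21G and A22U, all near the 3′ end, and is 1 base longer. The 3′ end of miR-29b is known to carry a signal that directs it to the nucleus. Whether the probes for one guide also bind another was not tested, since the probe sequences were not used here.

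The 3 guides come from 4 hairpins, which are shown because the array also measured the opposite arm of each. The guide is in capitals.
MIR29A: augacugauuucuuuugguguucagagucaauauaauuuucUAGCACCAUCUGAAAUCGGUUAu
MIR29B1: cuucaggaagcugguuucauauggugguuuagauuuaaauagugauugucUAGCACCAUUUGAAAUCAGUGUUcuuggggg
MIR29B2: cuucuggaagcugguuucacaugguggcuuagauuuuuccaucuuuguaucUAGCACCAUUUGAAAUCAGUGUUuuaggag
MIR29C: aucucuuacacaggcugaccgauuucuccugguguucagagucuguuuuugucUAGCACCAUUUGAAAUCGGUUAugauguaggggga
MIR29A lies at chr7:130876747-130876810 and MIR29B1 at chr7:130877459-130877539, both on the minus strand of GRCh38.p14 with 648 bases between them and inside no other annotated gene. MIR29C lies at chr1:207801852-207801939 and MIR29B2 at chr1:207802443-207802523, also on the minus strand, with 503 bases between them and within the non-coding host gene MIR29B2CHG. MIR29B1 and MIR29B2 give the same guide, so the signal of miR-29b-3p cannot be assigned to a locus. Their passenger arms differ and had separate probes. The passenger arms are shown with bases 2 to 8 in capitals, since none of the 4 shares the seed of the guides.
miR-29a-5p: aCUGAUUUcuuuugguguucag
miR-29b-1-5p: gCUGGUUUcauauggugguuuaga
miR-29b-2-5p: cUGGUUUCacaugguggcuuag
miR-29c-5p: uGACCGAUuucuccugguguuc

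Each human miRNA had 30 spots on an array, and the scanner software combined them into a total signal. For the values below, each array's total signals were scaled to the 75th percentile of the 365 miRNAs detected on all 8 arrays, and are given in array units. An array detected 395 to 481 miRNAs, and its unscaled 75th percentile ran from 60.5 to 92.7. Tests were run on the 480 miRNAs that both arrays of some group detected. The 2 gefitinib arrays were the most alike, with a correlation of 0.997 between their log2 signals, and the 2 luteolin arrays the least, at 0.973. Of the epithelial markers, miR-200b-3p was detected on 8 arrays and miR-205-5p on 6, while miR-200c-3p and miR-141-3p, also epithelial, were detected on none. Markers of muscle, neurons and liver were detected on no array, and of 3 blood cell markers only miR-142-3p was, on 1 array. All 8 arrays lay on 1 slide, and each treatment filled its own column, so treatment and slide column cannot be told apart. The number of arrays limits the precision of every value.

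All 3 guides were detected on all 8 arrays, and on each array all 15 spots of both of their probes were well above background. No spot was saturated. In DMSO-treated cells hsa-miR-29a-3p gave 1953 and 2520 in replicates 1 and 2, against 1778 and 2332 with luteolin. It gave 1714 and 1994.5 with gefitinib, and 1799 and 1941 with both drugs. The DMSO and luteolin arrays overlapped, the lower DMSO array lay below the higher gefitinib array, and both arrays of the combination lay below both DMSO arrays.

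hsa-miR-29b-3p gave 1293 and 1769 with DMSO, and 1095 and 1613 with luteolin. It gave 1072 and 1240.3 with gefitinib, and 1154 and 1389 with both drugs. Both gefitinib arrays lay below both DMSO arrays, and the other treatments overlapped with DMSO. hsa-miR-29c-3p gave 532 and 656 with DMSO, 451 and 583 with luteolin, 457 and 516 with gefitinib, and 478 and 503 with both drugs. For this guide the gefitinib arrays and the combination arrays all lay below both DMSO arrays. Levels are not ranked between the guides, because each probe binds with its own strength.

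**Figure D1:**
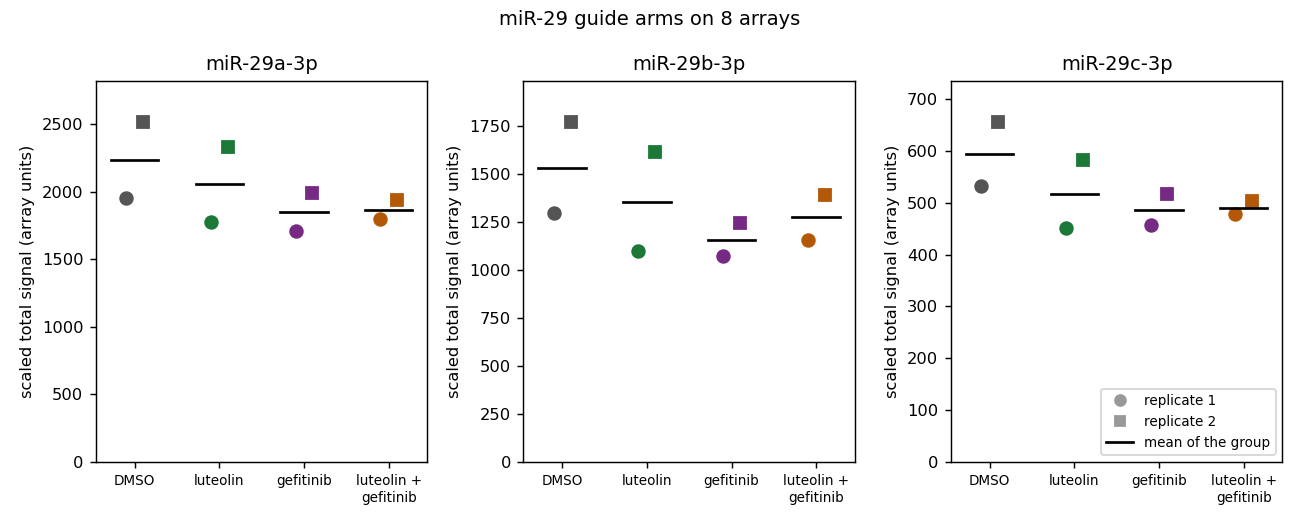
Scaled total signal (array units, axis from 0) of each miR-29 guide arm on the 8 arrays, by treatment. Circles are replicate 1, squares replicate 2 and lines the mean of the group. Replicate 2 lay above replicate 1 in all 4 groups for each guide, and the ranges of the groups lay close together.

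With the scaling used here, the order of the group means, from high to low, was the same for the 3 guides: DMSO, luteolin, both drugs, gefitinib. For miR-29a-3p the means were 2236 ± 401 (SD, n = 2) with DMSO, 2055 ± 392 with luteolin, 1870 ± 100.3 with both drugs and 1854 ± 199 with gefitinib. For miR-29b-3p they were 1531 ± 337, 1354 ± 366, 1272 ± 166 and 1156 ± 119 in that order of treatments. For miR-29c-3p they were 594 ± 88.1, 517 ± 93.8, 490.2 ± 17.9 and 486 ± 42.2. No neighbours in these orders differed beyond their spread in the limma tests given next. Within a group, replicate 2 was 1.05 to 1.47 times replicate 1 with this scaling. The order of the means did not hold without scaling. Unscaled, miR-29a-3p gave 1990 and 2361 with gefitinib, against 1834 and 2219 with DMSO.

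The comparisons with DMSO asked whether either drug, or both together, changed the amount of these guides. No guide passed limma's test in any of them, with p-values adjusted by Benjamini-Hochberg over the 480 miRNAs and a threshold of 0.05. With luteolin, 0 of 3 guides were called, where 2.08% of all tested miRNAs were, and with gefitinib, and again with both drugs, 0 of 3 were called against 12.1% of all tested. At an unadjusted p under 0.05 the count was also 0 in each comparison, where all tested miRNAs gave 8.54%, 23.8% and 25.8% with luteolin, gefitinib and both drugs. The family was chosen with earlier results known and its guides already taken as stable, so these counts, and those in the comparisons below, are descriptions. A p above the threshold does not show that the levels were equal, so the intervals are given.

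With luteolin, the log2 difference from DMSO was −0.12 for miR-29a-3p (SE 0.21, 95% interval −0.65 to 0.40). It was −0.19 for miR-29b-3p (SE 0.26, −0.84 to 0.47) and −0.20 for miR-29c-3p (SE 0.19, −0.68 to 0.27). The limma adjusted p-values were 0.958, 0.958 and 0.901. The median over all 480 miRNAs was −0.10, so the guides sat close to the middle of the table. No guide had groups that did not overlap, which 26.9% of all tested miRNAs had.

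With gefitinib, the log2 difference was −0.26 for miR-29a-3p (95% interval −0.78 to 0.26), −0.39 for miR-29b-3p (−1.04 to 0.26) and −0.28 for miR-29c-3p (−0.76 to 0.20). The limma adjusted p-values were 0.552, 0.477 and 0.484, and the median over all tested was −0.10. The lower bound for miR-29b-3p was the only one past a halving among the 9 intervals against DMSO. For 2 of the 3 guides, miR-29b-3p and miR-29c-3p, the gefitinib and DMSO arrays did not overlap, which was so for 57.5% of all tested miRNAs.

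With both drugs, the log2 difference was −0.25 for miR-29a-3p (95% interval −0.77 to 0.27), −0.26 for miR-29b-3p (−0.91 to 0.40) and −0.27 for miR-29c-3p (−0.75 to 0.21). The limma adjusted p-values were 0.522, 0.605 and 0.453, beside a median of −0.16 over all tested. The arrays of miR-29a-3p and miR-29c-3p did not overlap with DMSO, as for 52.9% of all tested miRNAs. These comparisons share the DMSO arrays, so a high or low DMSO array moves all of them together. Without DMSO replicate 2, the luteolin difference of miR-29a-3p was 0.06 and that of miR-29b-3p 0.04. Without luteolin replicate 1 they were 0.07 and 0.09. For the 3 guides with gefitinib, the differences lay between −0.16 and −0.08 without DMSO replicate 2 and between −0.62 and −0.43 without DMSO replicate 1. With both drugs they lay between −0.12 and −0.03 without DMSO replicate 2 and between −0.48 and −0.42 without DMSO replicate 1.

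Replicate 1 of every group lay in row 1 of the slide and replicate 2 in row 2, so differences were also taken within a row, a choice made after seeing the data. All 18 were below 0 with the scaling used here, running from −0.11 for miR-29a-3p with luteolin in row 2 to −0.51 for miR-29b-3p with gefitinib in row 2. Of all tested miRNAs, 49.0% with luteolin, 42.5% with gefitinib and 45.6% with both drugs were lower than DMSO in both rows. All 18 were also below 0 with scaling to the median of the miRNAs detected on all arrays. Of the 18, 8 were below 0 without scaling, 5 with scaling to human small-RNA control probes and 4 with scaling to spike-in probes. Scaling to the spike-in probes raised the median over all tested miRNAs by 0.20 with luteolin, 0.49 with gefitinib and 0.19 with both drugs.

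**Figure D2:**
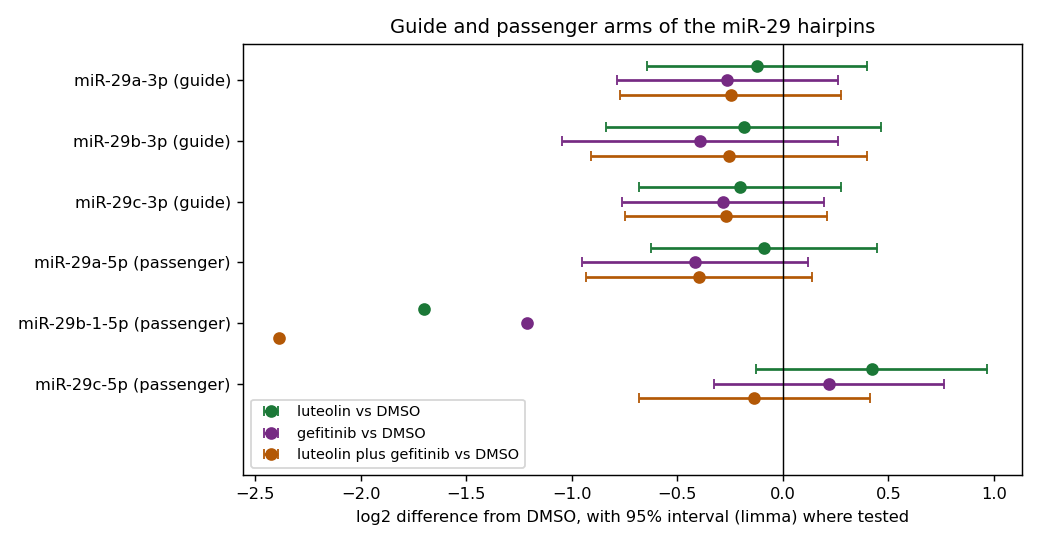
Log2 difference from DMSO (points) with 95% intervals from limma (bars, not drawn for miR-29b-1-5p) for the guide and passenger arms of the miR-29 hairpins that were detected, in 3 treatments. The guides lie between −0.39 and −0.12, and miR-29b-1-5p, shown as a description, between −2.39 and −1.21.

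The drugs were also set against each other, and 0 of 3 guides were called in each comparison. For both drugs against luteolin 1.88% of all tested miRNAs were called, and the largest guide difference was −0.12, for miR-29a-3p (95% interval −0.65 to 0.40). For both drugs against gefitinib 4.58% were called, and the largest was 0.13, for miR-29b-3p (−0.52 to 0.79). For gefitinib against luteolin 5.00% were called, and the largest was −0.20, for miR-29b-3p (−0.86 to 0.45). The groups of every guide overlapped in these 3 comparisons, whereas 34.2%, 51.0% and 41.5% of all tested miRNAs did not. The interaction asks whether the effect of both drugs differs from the sum of the effects of each drug in log2 units. A call was made for 3.33% of all tested miRNAs and for no guide, with the largest value 0.32 for miR-29b-3p (−0.60 to 1.24, limma adjusted p = 0.986). No guide had an unadjusted limma p under 0.05 in these 4 comparisons, against 15.4%, 12.5%, 16.7% and 10.2% of all tested miRNAs in the order given.

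The sign of these small differences depended on how the arrays were scaled. With gefitinib, miR-29a-3p was 0.10 above DMSO on the log2 scale without scaling and when scaled to 5 human small-RNA control probes, and 0.23 above when scaled to 4 spike-in probes. With both drugs, scaling to the small-RNA control probes gave 0.18 for miR-29a-3p, 0.17 for miR-29b-3p and 0.16 for miR-29c-3p. These scalings moved all miRNAs together: relative to the values above, the median over all tested was higher by 0.49 for gefitinib with the spike-in probes and by 0.40 for the combination with the small-RNA control probes. Under normexp background correction with quantile normalisation, miR-29c-3p was called with both drugs, at a log2 difference of −0.29 and a limma adjusted p of 0.0481. Over all alternatives its adjusted p in that comparison ran from 0.0481 to 0.991. The number of all miRNAs called in that comparison ran from 12 to 99 over the settings. The share called under normexp is not given here.

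**Figure D3:**
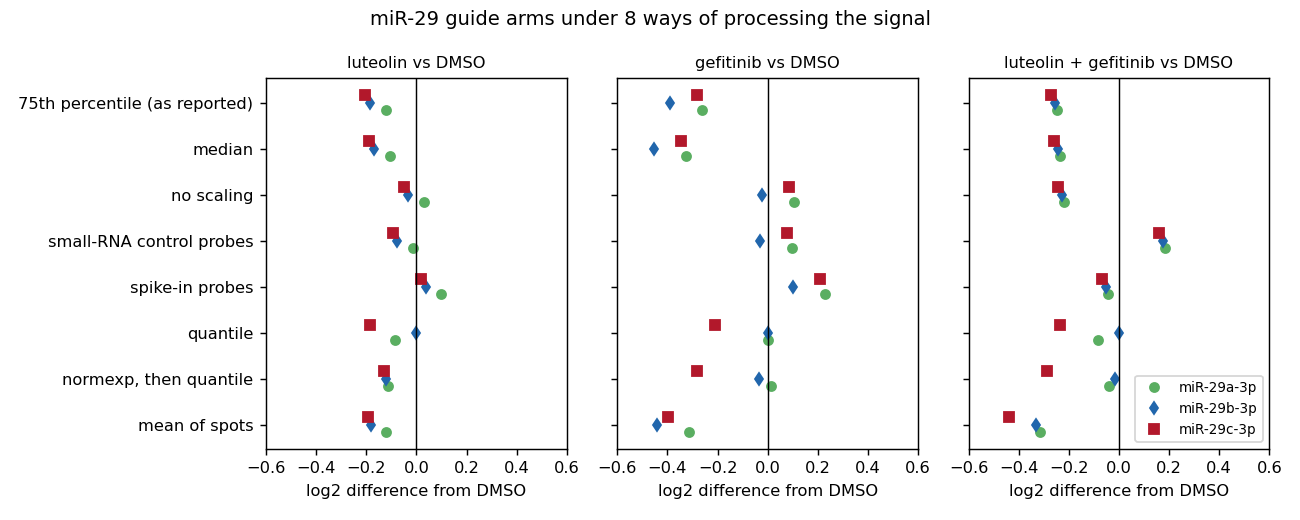
Log2 difference from DMSO of each guide arm (x axis) under 8 ways of scaling or summarising the signal (rows), by treatment. Points lie on both sides of 0 across the rows, with gefitinib between −0.45 for miR-29b-3p under median scaling and 0.23 for miR-29a-3p under spike-in scaling.

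The family was chosen with its guides already taken as stable, so their spread over the 8 arrays is a description. The highest array was 1.47 times the lowest for miR-29a-3p, 1.65 times for miR-29b-3p and 1.46 times for miR-29c-3p. The SD of the log2 signal was 0.19, 0.26 and 0.18, beside a median of 0.27 over the 365 miRNAs detected on all arrays, of which 46.3% had a smaller SD than miR-29b-3p. The measurement error that the scanner software gave for a single array was 7.11 to 7.74% of the signal.

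For 4 of the 6 guide probes the repeat spots differed more among themselves on each of the 4 arrays with gefitinib than on any of the other 4, a change that the nearly constant software error does not show. For the first miR-29c-3p probe the spot CV, the SD of the 15 spots over their mean, was 1.96 to 7.02% on the DMSO and luteolin arrays and 17.2 to 24.0% on the arrays with gefitinib. For its second probe it was 2.03 to 3.39% against 11.8 to 18.5%. The second miR-29b-3p probe gave 2.46 to 3.44% against 10.5 to 13.5%, and the second miR-29a-3p probe 4.43 to 5.63% against 6.02 to 7.18%, while the first probes of these 2 guides overlapped. A spot CV higher on all 4 arrays with gefitinib was found for 41.6% of the 430 probes whose 15 spots were all well above background on every array. The median CV of those probes was 6.34 to 6.99% on the arrays without gefitinib and 8.89 to 11.0% on those with it. The part of this spread in the guide differences was not tested. With the plain mean of the spots in place of the total signal, the log2 difference of miR-29c-3p was −0.40 with gefitinib and −0.44 with both drugs (limma adjusted p = 0.243 and 0.180).

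Ratios within an array do not depend on the scaling, and they show only unequal change. The ratio of miR-29a-3p to miR-29c-3p, which differ at 1 base and come from different chromosomes, varied least, with its highest value 1.09 times its lowest. The ratio of miR-29a-3p to miR-29b-3p, neighbours on chromosome 7 for the MIR29B1 copy, spanned 1.16-fold, and that of miR-29b-3p to miR-29c-3p 1.18-fold. With gefitinib the ratio of miR-29a-3p to miR-29b-3p was 1.09 times its DMSO value on average, with both arrays above both DMSO arrays. The other treatments overlapped with DMSO in this ratio. The ratio of miR-29b-3p to miR-29c-3p was 0.928 times its DMSO value with gefitinib, with both arrays below both DMSO arrays. The ratio of miR-29a-3p to miR-29c-3p was 1.06 times its DMSO value with luteolin, with both arrays above. Each of these ratios overlapped with DMSO in the other treatments. Over all 66430 pairs of the 365 miRNAs detected on all arrays, the ratio lay apart from DMSO in 30.2% of pairs with luteolin, 58.6% with gefitinib and 55.5% with both drugs, so these separations were common on these arrays.

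Across the 8 arrays the scaled log2 signals of the guides followed each other, with a Pearson r of 0.971 for miR-29a-3p and miR-29b-3p, 0.980 for miR-29a-3p and miR-29c-3p, and 0.959 for miR-29b-3p and miR-29c-3p. The median r of the guides with all other miRNAs detected on all arrays was 0.28 for miR-29a-3p, 0.23 for miR-29b-3p and 0.26 for miR-29c-3p. Without scaling these medians were 0.46, 0.25 and 0.47, and the guide pairs, in the order above, gave 0.912, 0.981 and 0.876. These are descriptions over 8 arrays that share a scaling, 4 treatments and the replicate difference.

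The miRNAs most like each guide were chosen as the 3 with the highest r, the other guides left out. For miR-29a-3p they were miR-128 (r = 0.974), miR-185-5p (0.970) and miR-24-3p (0.956). For miR-29b-3p they were miR-130a-3p (0.974), miR-20b-5p (0.974) and miR-128 (0.966). For miR-29c-3p they were miR-4306 (0.973), miR-24-3p (0.958) and miR-19b-3p (0.956). Without scaling, the first neighbour stayed first for miR-29a-3p and miR-29c-3p, while for miR-29b-3p miR-20b-5p took the lead from miR-130a-3p. Other named miRNAs fell in rank without scaling. For miR-29b-3p, miR-130a-3p ranked 4 and miR-128 ranked 6, and miR-24-3p ranked 10 for miR-29a-3p and 5 for miR-29c-3p. miR-185-5p ranked 2 for miR-29a-3p, and miR-19b-3p ranked 3 for miR-29c-3p.

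The passenger arms were dim, and all 8 arrays detected 3 of the 4. miR-29b-2-5p, from the chromosome 1 copy, was detected on none, so it has no fold. miR-29b-1-5p, the passenger of the chromosome 7 copy, gave 19.9 and 25.8 with DMSO, 5.93 and 8.18 with luteolin, 10.7 and 8.94 with gefitinib, and 3.90 and 4.79 with both drugs. Its DMSO arrays were the highest and its combination arrays the lowest, with no overlap between any of the 4 groups. Over all tested miRNAs the arrays lay apart from DMSO in 26.9% with luteolin, 57.5% with gefitinib and 52.9% with both drugs. Between drugs they lay apart in 34.2% for both drugs against luteolin, 51.0% for both against gefitinib and 41.5% for gefitinib against luteolin. The fall of this arm was one reason for choosing the family, so it is given as a description with no test. The log2 difference from DMSO was −1.70 with luteolin, −1.21 with gefitinib and −2.39 with both drugs.

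miR-29b-1-5p had 4 probes, of which probe 4 had all 7 of its spots well above background on every array. Its log2 difference from DMSO was −1.49 with luteolin, −1.12 with gefitinib and −2.00 with both drugs. On the combination arrays the first probe had 0 of 8 spots well above background and the others lost spots too, so no differences are given for them. The scanner software left 1 of the 4 probes out of the total on luteolin replicate 1 and on both combination arrays. Summing all 4 probes, an alternative chosen after seeing the data, gave −1.63 with luteolin and −2.25 with both drugs. The smallest differences came from normexp with quantile normalisation, which adds an offset of 50 to every signal, at −0.44 with luteolin, −0.38 with gefitinib and −0.56 with both drugs.

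The ratio of miR-29b-1-5p to miR-29b-3p within an array was lower than with DMSO by 2.86-fold with luteolin, 1.77-fold with gefitinib and 4.38-fold with both drugs. Every drug array lay below both DMSO arrays in this ratio. Since the family was chosen for this fall beside guides that had looked stable, the ratio restates the choice and is no separate result. In the neighbouring hairpin the ratio of miR-29a-5p to miR-29a-3p spanned 1.30-fold over the 8 arrays. Under gefitinib it was 0.900 times its DMSO value, and both arrays lay below both DMSO arrays. Such a separation under gefitinib was found for 58.6% of all pairs of miRNAs detected on all arrays. For this ratio the luteolin arrays overlapped with the DMSO arrays, and so did the combination arrays.

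**Figure D4:**
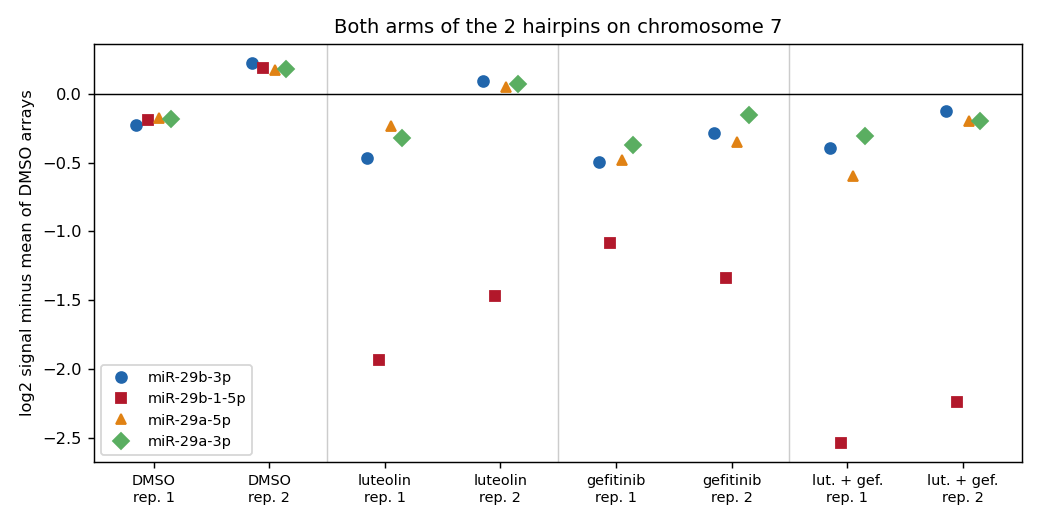
Log2 scaled signal on each array minus the mean of the 2 DMSO arrays, for the guide and passenger arms of MIR29A and MIR29B1. miR-29b-1-5p (squares) lies lowest with both drugs, with a mean log2 difference of −2.39, and the other 3 arms lie above it on every drug array.

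miR-29a-5p, the passenger of MIR29A, gave 5.02 and 6.39 with DMSO, and 4.83 and 5.88 with luteolin. It gave 4.06 and 4.44 with gefitinib, and 3.75 and 4.94 with both drugs. The last 4 arrays lay below both DMSO arrays, a separation found for 57.5% of all tested miRNAs with gefitinib and 52.9% with both drugs, and the log2 differences of −0.09 with luteolin, −0.42 with gefitinib and −0.40 with both drugs did not pass limma's test (adjusted p = 0.981, 0.337 and 0.328). The difference with gefitinib was 0.08 under spike-in scaling.

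miR-29c-5p, the passenger of MIR29C, gave 3.80 and 4.34 with DMSO, and 5.16 and 5.73 with luteolin. It gave 4.62 and 4.83 with gefitinib, and 4.52 and 3.03 with both drugs. Luteolin and gefitinib arrays lay above the DMSO arrays, where 26.9% and 57.5% of all tested miRNAs lay apart from DMSO on either side, yet the total held only 1 of the 2 probes on both DMSO arrays and on combination replicate 2, and both probes on the other arrays. The log2 difference was 0.42 with luteolin, 0.22 with gefitinib and −0.13 with both drugs, with limma adjusted p-values of 0.666, 0.642 and 0.773. Summing both probes everywhere gave 0.03, −0.17 and −0.29. Without combination replicate 2 the difference with both drugs was 0.15.

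Each guide was read by 2 probes with 15 spots each, and both probes gave differences of the same sign in all 3 treatments. For miR-29a-3p with gefitinib they gave −0.34 and −0.21 on the log2 scale, for miR-29b-3p −0.37 and −0.44, and for miR-29c-3p −0.29 and −0.27. The ratio of the second to the first probe is free of the scaling. For miR-29a-3p it was 1.49 and 1.53 with DMSO, 1.63 and 1.63 with luteolin, 1.67 and 1.65 with gefitinib, and 1.62 and 1.65 with both drugs. All 6 drug arrays lay above both DMSO arrays, by 8.53% on average.

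A separation of this kind was found for 12.6% of 253 miRNAs with 2 probes that were both over 3 times their error on all arrays, so a share of miRNAs behaved like miR-29a-3p. The probe ratio of miR-29b-3p ran from 0.389 to 0.412, lowest with gefitinib. That of miR-29c-3p ran from 1.21 to 1.27 and overlapped between treatments.

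**Figure D5:**
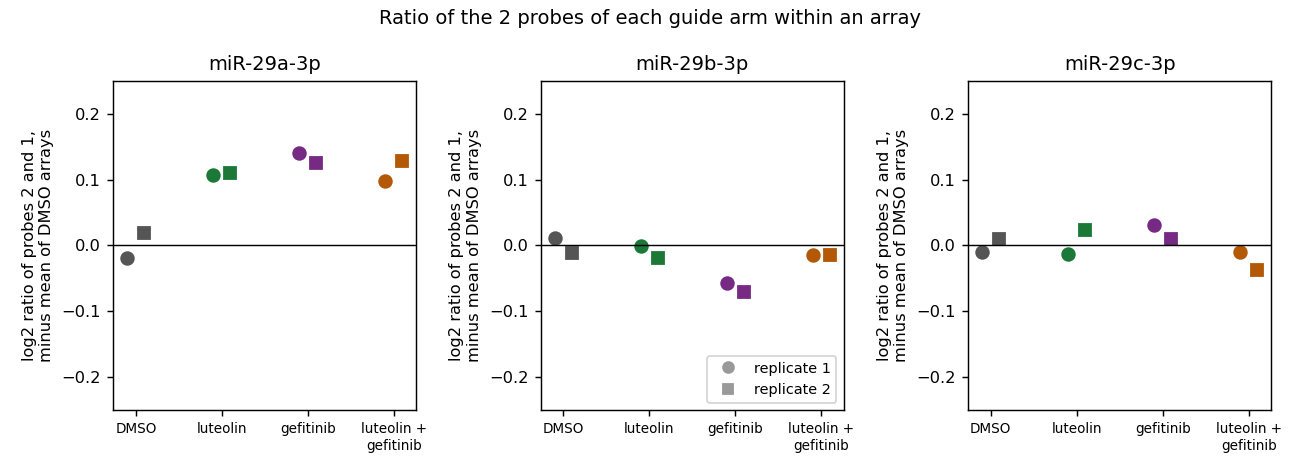
Log2 ratio of the second to the first probe of each guide arm within an array, minus the mean of the 2 DMSO arrays, by treatment. Circles are replicate 1 and squares replicate 2. For miR-29a-3p all 6 drug arrays lie above the DMSO arrays, while the points of miR-29c-3p overlap.

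Other miRNAs known to be repressed by MYC were counted as a list of 18, among them let-7 members, miR-15a-5p and miR-16-5p, miR-26a-5p, miR-30 members and miR-34a-5p. Of these, 17 were tested and miR-150-5p was not. In each of the 7 comparisons 0 of the 17 were called by limma, where 1.88% to 12.1% of all tested were, and 0 had an unadjusted p under 0.05, where 8.54% to 25.8% of all tested had. The list's median log2 difference from DMSO was 0.01 with luteolin, 0.04 with gefitinib and −0.05 with both drugs, and single members ran from −0.39 to 0.54. The medians over all tested were −0.10, −0.10 and −0.16.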

How the data were processed

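RNA from 8 samples was labelled with Cy3, 100 ng per array, and hybridised to 1-colour Agilent human miRNA arrays. The authors extracted the spot intensity values with Agilent Feature Extraction, version 10.7.3.1 per the file headers, and deposited intensity values that had been background-subtracted but not scaled between arrays. The software's total signal per miRNA (0.1 where undetected) was used here. It was scaled to the 75th percentile over the 365 miRNAs detected on all arrays, floored at 0.609 and taken to log2. The floor is the median over the 8 arrays of each array's lowest detected scaled signal. The deposited series table holds unscaled linear intensity per spot, which differed from the scanner values by at most 0.497%. Its mean over the spots of a miRNA served as an alternative.

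limma 3.58.1 in R 4.3.3 was fitted to all 8 arrays and 480 miRNAs (4 residual and 1.66 prior degrees of freedom, two-sided, called at adjusted p under 0.05), and the steps were tested on simulated data. An exact permutation test of 2 against 2 arrays cannot go below 0.333, so none is given. The guides, the other arms of their hairpins and the MYC list are always named, with the 3 miRNAs of highest r for each guide. The members and lists were chosen with earlier results of these data known. Of the 1887 array names, 1578 matched RefSeq. Alternatives changed the scaling, spot summary, background correction, filter, floor, fitted arrays and test, used the replicate number as a block, or left out 1 array.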

Additional observations from a re-analysis of the deposited data

How the results depend on the processing

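The count of guides called was 0 of 3 under all 24 alternatives in 6 comparisons and all 23 in the interaction (which needs every group), except that normexp with quantile normalisation gave 1 with both drugs against DMSO, miR-29c-3p. Its adjusted p there was 0.0481, and the cause was not tested. Over these settings and comparisons 0 to 99 of all miRNAs were called, and 12 to 99 with both drugs against DMSO. With gefitinib, 1 guide had an unadjusted limma p under 0.05 under normexp and 1 under the block. The share of all tested miRNAs under these settings is not given here. In the fit reported above it was 23.8%. The methods' t-test gave 0 guides, both unadjusted and after Benjamini-Hochberg adjustment. Scaling to the 75th percentile over all miRNAs was not run, since on 5 of the 8 arrays that percentile is the value given to undetected miRNAs.

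With luteolin, log2 differences from DMSO changed sign as follows. Without scaling, miR-29a-3p was at 0.030 and miR-29a-5p at 0.065. With spike-in probes, miR-29a-3p was at 0.10, miR-29b-3p at 0.037, miR-29c-3p at 0.019 and miR-29a-5p at 0.14. miR-29a-5p was at 0.023 with small-RNA control probes, 0.15 under quantile normalisation and 0.0001 under normexp. Leaving out 1 array gave −0.32 to 0.072 for miR-29a-3p, −0.47 to 0.093 for miR-29b-3p and −0.26 to 0.086 for miR-29a-5p.

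With gefitinib, miR-29a-3p and miR-29c-3p were at 0.10 and 0.084 without scaling and at 0.099 and 0.079 with small-RNA control probes. With spike-in probes, miR-29a-3p was at 0.23, miR-29b-3p at 0.10, miR-29c-3p at 0.21 and miR-29a-5p at 0.077. Under normexp miR-29a-3p was at 0.014. miR-29c-5p turned to −0.23 with the mean of the spots, −0.23 with the series table, −0.016 under normexp and −0.17 with all probes summed, where the number of probes in the total differs between arrays.

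With both drugs, small-RNA control probes gave 0.18 for miR-29a-3p, 0.17 for miR-29b-3p, 0.16 for miR-29c-3p, 0.034 for miR-29a-5p and 0.30 for miR-29c-5p. miR-29c-5p was at 0.069 with spike-in probes and 0.31 under quantile normalisation, and ran from −0.42 to 0.15 when 1 array was left out.

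The replicate number, which is also the slide row, as a block left 0 guides called and the differences as they were, −0.39 for miR-29b-3p with gefitinib, the lowest adjusted p being 0.154. The deviations of same-numbered arrays correlated between −0.13 (DMSO with gefitinib) and 0.91 (DMSO with luteolin) over 365 miRNAs, with 3 of the 6 pairs of groups at 0.41 or above and 3 at 0.07 or below, so the numbers were not taken to pair the samples.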
